A study of Mus musculus with 86 samples.

Results

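The 6 genes described here, Krt7, Krt19, Epcam, Sox9, Cd24a and Cftr, were chosen by name as markers of bile duct epithelium and of the ductular reaction. They are 6 of 31054 genes in the counts of a knockout experiment and 6 of 38277 in the FPKM tables of an inhibitor experiment, and all 6 were found in both. The study asked how the loss or inhibition of MERTK, a receptor kinase used by macrophages to engulf dying cells, bears on scarring of mouse liver, kidney and lung.

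In the knockout experiment, liver was taken after bile duct ligation (BDL) or sham surgery and kidney after unilateral ureteral obstruction (UUO) or sham surgery. The mice were labelled Mertk knockout (KO) or wild type (WT), with 4 libraries for each combination. The inhibitor experiment used mice that were all labelled wild type and injected with UNC569, a small-molecule inhibitor of MERTK, or with DMSO, its solvent. BDL livers had 4 UNC569 and 6 DMSO columns, UUO kidneys 7 and 4, bleomycin lungs 6 and 6, and each sham group 3. BDL livers with UNC569 had 6 samples for these 4 columns, and UUO kidneys with UNC569 had 8 samples for 7. Which samples lack a column is not known, and in the other groups samples and columns matched in number. No label gives an age, a strain, a dose, a time after injury or the way the Mertk allele was made. The protocol speaks of biological replicates, but no label ties a library to an animal, so p-values measure the spread between these libraries.

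Cholangiocytes are the epithelial cells that line bile ducts. When bile flow is blocked, ducts lengthen and small irregular ductules spread from the portal tracts into the lobule, which is called the ductular reaction. KRT7 and KRT19 are keratins of simple and ductal epithelium, and hepatocytes normally contain little of either. EPCAM is an adhesion molecule and CD24 a small surface protein, both carried by ductal and progenitor-like epithelium. SOX9 is a transcription factor of duct formation that hepatocytes can also switch on after cholestatic injury. CFTR is the chloride channel through which cholangiocytes drive secretion in response to secretin. All of these genes are also used by other epithelia, including kidney tubules and the lining of the airways.

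Counts came from 14.5 to 23.4 M reads in genes per liver library and 7.22 to 28.5 M per kidney library. Levels are given as counts per M reads (CPM) after TMM normalisation, which corrects for differences in library composition, or as deposited FPKM, which also divides by gene length. Mertk was not lower under the KO label in sham liver, at 10.8 to 20.5 CPM in KO-labelled and 10.5 to 18.1 CPM in WT libraries, nor in UUO kidney, at 44.5 to 63.0 CPM in KO-labelled and 51.1 to 65.0 CPM in WT libraries. In BDL liver Mertk was at 6.95 to 18.8 CPM in KO-labelled and 21.3 to 28.4 CPM in WT libraries (log2 -0.97 ± 0.29, adjusted p = 0.0614), so the KO groups are named by their label only. The library labelled kidney sham WT 1 held the hepatocyte transcript Alb at 222143 CPM, and that labelled UUO WT 1 held the fat-cell transcript Adipoq at 825 CPM. Both are left out of the kidney comparisons unless stated. Hepatocyte markers, 8 of 8 detected, summed to between 46684 and 117947 CPM in all 16 liver libraries. Kidney collecting duct markers summed to at most 0.616 CPM there, with Aqp2 and Foxi1 at 0 in every one.

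All 6 genes were higher in BDL than in sham liver of WT mice. For each, the lowest BDL library lay above the highest sham library. Here and below, overlap was read for the genes named only, so the share of all genes that separate likewise is not known. By edgeR's quasi-likelihood test with Benjamini-Hochberg adjustment over 13492 genes, 6 of 6 rose at an adjusted p under 0.05, while of all genes tested 16.3% were called higher and 12.8% lower. Their median change was 3.62 on the log2 scale, beside a median of 0.03 over all genes tested. In bulk tissue, more cells of a type and more RNA per cell cannot be told apart.

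Krt7 was at 31.6, 12.4, 8.06 and 2.97 CPM in WT BDL libraries 1 to 4, against 1.24, 1.03, 0.757 and 1.5 CPM in WT sham libraries 1 to 4. The BDL libraries spread over a wide range, and the lowest, library 4, stood only a little above the sham libraries. The rise was 3.59 ± 0.73 on the log2 scale (adjusted p = 0.00221). Krt19 was at 39.3, 11.6, 8.23 and 14.1 CPM in WT BDL, against 1.65, 2.57, 0.826 and 0.782 CPM in WT sham. Library 1 was again the highest, and the groups did not overlap (log2 3.64 ± 0.72, adjusted p = 0.00198). Without BDL WT 1 the rises of Krt7 and Krt19 were 2.78 ± 0.66 and 2.94 ± 0.68 and still passed.

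The surface protein genes rose as well. Epcam was at 29.7, 19, 17.2 and 8.58 CPM in WT BDL, against 2.82, 1.22, 0.894 and 1.89 CPM in WT sham (log2 3.43 ± 0.54, adjusted p = 4.32e-04). Cd24a was at 62.2, 41.6, 33.5 and 21 CPM in WT BDL, against 4.76, 1.28, 1.44 and 2.87 CPM in WT sham (log2 3.92 ± 0.62, adjusted p = 4.32e-04). For both, as for Krt7 and Cftr, BDL WT 1 was the highest library and BDL WT 4 the lowest.

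Sox9, the transcription factor, followed another order. It was at 25.6, 19, 42.4 and 41.3 CPM in WT BDL, against 6.35, 5.78, 7.43 and 4.69 CPM in WT sham (log2 2.40 ± 0.48, adjusted p = 0.00201). Libraries 3 and 4 were the highest, where the keratins were not. The 4 BDL libraries stood well clear of the 4 sham libraries. Cftr, the channel, had 87, 72, 91 and 22 reads in WT BDL (5.36, 3.93, 3.82 and 1.42 CPM), against 4, 2, 1 and 2 reads in WT sham (0.235, 0.128, 0.0688 and 0.130 CPM). The fitted change of 4.60 ± 1.18 (adjusted p = 0.00907) therefore rests on few sham reads. Sox9 kept its rise without BDL WT 1, at 2.49 ± 0.51, as did Cftr, at 4.35 ± 1.25.

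**Figure D1:**
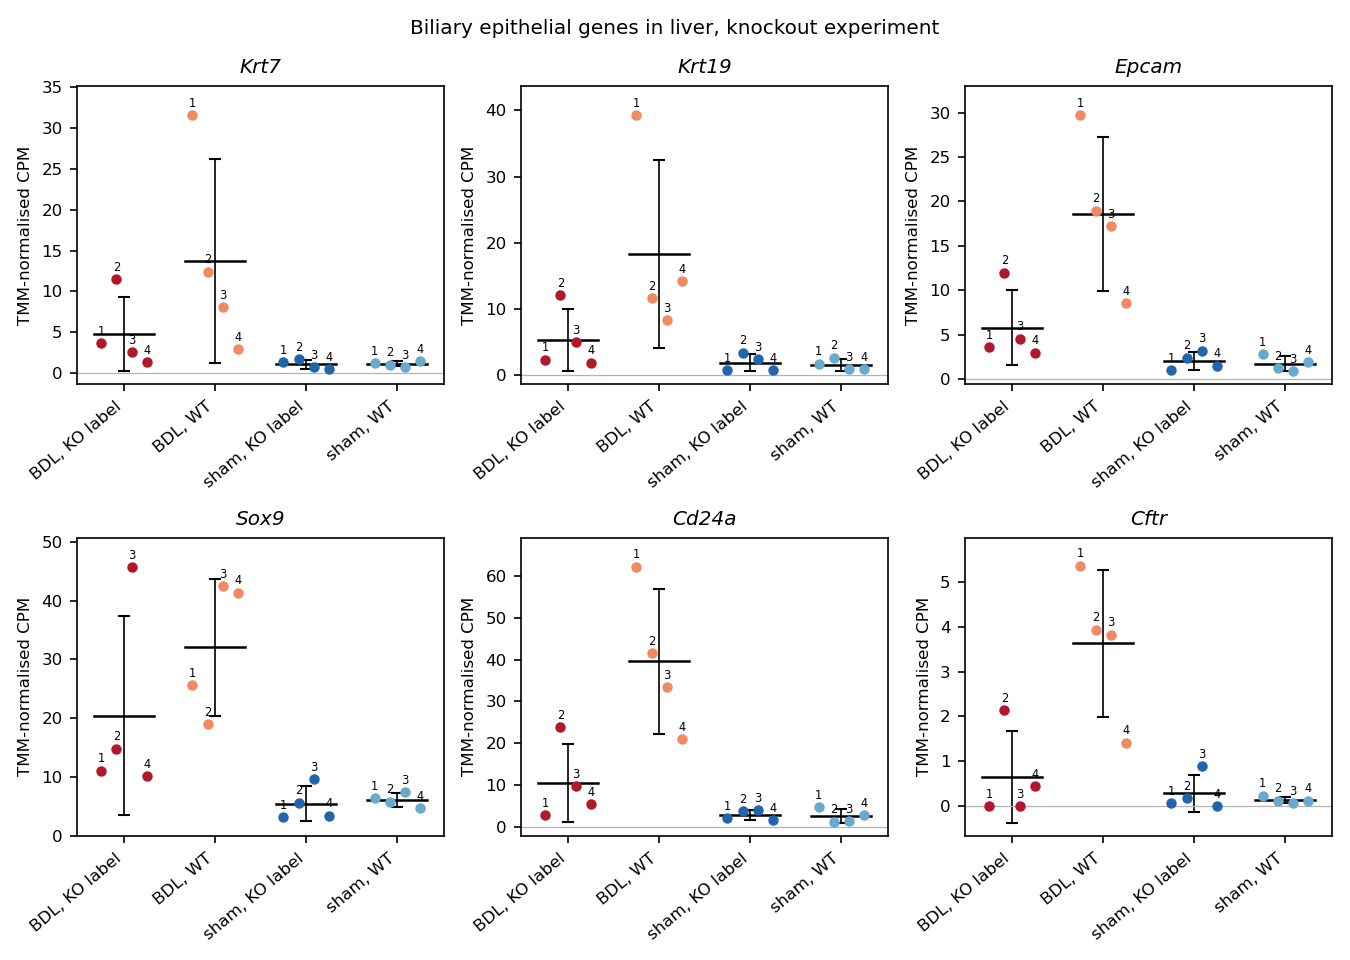
Level of each of the 6 genes (TMM-normalised CPM, linear axis) in the 16 liver libraries of the knockout experiment. Each point is 1 library with its replicate number, the line is the group mean and the bar its SD (n = 4). In WT mice every BDL point lies above every sham point for all 6 genes, and BDL KO 3 stands alone for Sox9 at 45.7 CPM.

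In livers labelled Mertk KO, the same comparison gave smaller values for each gene. Krt7, Epcam, Sox9 and Cd24a rose, that is 4 of 6, while of all genes tested 14% were called higher and 11.2% lower. The member median was 1.71. Sox9 was the member whose BDL and sham libraries did not overlap, at 11.1, 14.8, 45.7 and 10.2 CPM in KO-labelled BDL, against 3.21, 5.64, 9.64 and 3.40 CPM in KO-labelled sham (log2 1.89 ± 0.47, adjusted p = 0.0103). Without BDL KO 1 and BDL KO 3, Sox9 was at 1.19 ± 0.40 (adjusted p = 0.0566).

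Krt7 was at 3.70, 11.5, 2.56 and 1.37 CPM in KO-labelled BDL, against 1.38, 1.70, 0.707 and 0.504 CPM in KO-labelled sham (log2 2.15 ± 0.71, adjusted p = 0.0365). Epcam was at 3.57, 12, 4.56 and 2.97 CPM in KO-labelled BDL, against 0.983, 2.43, 3.21 and 1.51 CPM in KO-labelled sham (log2 1.5 ± 0.51, adjusted p = 0.0425). Cd24a was at 2.89, 23.9, 9.83 and 5.54 CPM in KO-labelled BDL, against 2.10, 3.76, 3.98 and 1.64 CPM in KO-labelled sham (log2 1.87 ± 0.58, adjusted p = 0.0281). In all 3 the high library was BDL KO 2, while BDL KO 1 or BDL KO 4 reached into the sham range. Without BDL KO 2, Krt7 was at 1.24 ± 0.64 (adjusted p = 0.165), Epcam at 0.86 ± 0.46 (adjusted p = 0.180) and Cd24a at 1.07 ± 0.50 (adjusted p = 0.125), which leaves Sox9 as the only call. Sox9 was also the only call without sham KO 1 (the others at adjusted p 0.0677 to 0.116) or without sham KO 4 (0.0822 to 0.108), Krt7 and Epcam were lost without sham KO 2 (0.05001 and 0.0735), Krt7 without sham KO 3 (0.0947) and Epcam without BDL KO 3 (0.0534).

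Krt19 and Cftr did not pass in KO-labelled livers. Krt19 was at 2.28, 12, 4.96 and 1.83 CPM in BDL, against 0.721, 3.34, 2.38 and 0.693 CPM in sham (log2 1.55 ± 0.68, adjusted p = 0.103). Cftr had 0, 35, 0 and 8 reads in BDL, against 1, 3, 14 and 0 reads in sham (log2 1.19 ± 1.10, adjusted p = 0.442). A count of 0 allows up to 3 reads, or 0.185 CPM in BDL KO 1 and 0.240 CPM in BDL KO 3, counting error only. Cftr was thus seen mainly in BDL KO 2, the library in which 5 of the 6 genes peaked.

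Set directly against each other after BDL, KO-labelled livers had a lower fitted level than WT livers for each of the 6 genes. The difference was -1.52 ± 0.65 for Krt7, -1.80 ± 0.66 for Krt19, -1.69 ± 0.49 for Epcam, -0.66 ± 0.45 for Sox9, -1.91 ± 0.56 for Cd24a and -2.45 ± 1.00 for Cftr on the log2 scale. By edgeR 0 of the 6 passed, with adjusted p from 0.0572 (Cd24a) to 0.363 (Sox9), while 5 had an unadjusted p under 0.05. By DESeq2 Krt19, Epcam and Cd24a passed, 3 of 6. Of all genes tested, edgeR called 1.72% lower and 2.67% higher under the KO label.

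The calls turned on 1 library. BDL KO 2 was at 11.5 CPM for Krt7, 12 for Epcam and 23.9 for Cd24a, and the other 3 KO-labelled libraries held at most 3.70, 4.56 and 9.83 CPM. For Epcam and Cd24a it was the one KO-labelled library within the WT range, and for Krt7 BDL KO 1 lay within it too. Without BDL KO 2, 5 of the 6 passed as lower, with Cd24a at -2.70 (adjusted p = 0.0105), Epcam at -2.33 (adjusted p = 0.0114), Krt7 at -2.43 (adjusted p = 0.0273), Krt19 at -2.60 (adjusted p = 0.0242) and Cftr at -4.40 (adjusted p = 0.0213). Sox9 was then at -0.52 ± 0.49 (adjusted p = 0.490). The labels of BDL KO 1 and BDL KO 3 note a bad read file, and that of BDL KO 2 does not. With BDL KO 1 and BDL KO 3 left out in place of BDL KO 2, 0 of 6 passed. The values were then from -1.47 (Cftr) to -1.08 (Krt7), with adjusted p from 0.162 to 0.476. The lowest adjusted p of Sox9 under any setting tried was 0.0624.

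Whether the BDL response itself differed by label was tested as an interaction. The KO-labelled response minus the WT response lay between -3.41 (Cftr) and -0.51 (Sox9), with adjusted p from 0.268 to 0.753, so 0 of 6 passed by edgeR, 3 had an unadjusted p under 0.05, and 0 of 6 passed by DESeq2. Across all genes edgeR called 0% in this test.

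Hepatocyte markers, of which 8 of 8 were detected in every liver group, were lower in WT BDL than in WT sham, where the members were higher. Their summed level was 74647 to 117947 CPM in KO-labelled BDL, 46684 to 76951 CPM in WT BDL, 100090 to 108802 CPM in KO-labelled sham and 92083 to 112978 CPM in WT sham. Dividing-cell markers, 5 of 5 detected, summed to 4.74 to 42.7 CPM in KO-labelled BDL and 10.8 to 104 CPM in WT BDL. Neutrophil markers summed to 7.08 to 108 CPM in KO-labelled BDL, highest in BDL KO 3, the library with the highest Sox9, and to 8.31 to 23.2 CPM in WT BDL. The part of these cells in the members' values was not tested. The uroplakins Upk2 and Upk3a, which mark urothelium, were at 0 in KO-labelled BDL livers, and Aqp2 of the kidney collecting duct was at 0 in all 16 libraries.

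Other genes of biliary epithelium were read from lists grouped by role. Of 8 surface and secreted markers of reactive ductules, 2 rose after BDL under the KO label, Cd44 and Tm4sf4, against 8 of 8 in WT (median 3.66). Prom1, the stem-cell surface marker prominin 1, was at 3.10 ± 2.31 CPM in KO-labelled BDL and 13.7 ± 4.12 CPM in WT BDL (SD, n = 4 each; log2 -2.14 ± 0.52, adjusted p = 0.0409). Against sham under the KO label, edgeR did call Prom1 higher without BDL KO 1 and BDL KO 3 (1.93, adjusted p = 0.00392). The same held with all libraries left out whose labels note a bad read file (1.93, adjusted p = 0.00381). Tm4sf4, a tetraspanin-like membrane protein, was at 425 ± 134 CPM in KO-labelled BDL and 363 ± 64.3 CPM in WT BDL (log2 0.23 ± 0.23, adjusted p = 0.539). Spp1 and Tspan8 were the other members of this list to fall, by 3.12 and 2.41 on the log2 scale (adjusted p = 0.0370 and 0.0454), both named after their values were seen.

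Of 7 keratins and junction genes, 3 rose after BDL under the KO label and 4 in WT (median 1.49). Krt18, which hepatocytes share, was at 614 ± 156 CPM in KO-labelled BDL and 630 ± 180 CPM in WT BDL (log2 -0.04 ± 0.27, adjusted p = 0.945). WT BDL was above WT sham, at 207 ± 77.8 CPM (log2 1.61 ± 0.28, adjusted p = 8.88e-04). Cldn4, a tight-junction claudin, was at 11.5 ± 10.4 CPM in WT BDL, against 0.254 ± 0.352 CPM in WT sham (log2 5.45 ± 1.10, adjusted p = 0.00213). Among 7 transcription factors of the biliary lineage, Elf3 rose and Onecut1 and Onecut2 fell after BDL under the KO label, and in WT Elf3, Ehf and Grhl2 rose and Onecut1 fell (median 0.35). Elf3, an epithelial ETS factor, changed by 4.43 ± 0.58 in WT BDL (adjusted p = 1.16e-04). Ehf, from the same factor family, was at 2.03 ± 1.69 CPM in KO-labelled BDL and 9.69 ± 2.23 CPM in WT BDL, where the groups did not overlap but edgeR's test missed the threshold (log2 -2.25 ± 0.65, adjusted p = 0.0553). By DESeq2 Ehf passed as lower (-2.24, adjusted p = 0.00965).

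Of 7 transport and secretion genes tested, 2 rose after BDL under the KO label and 4 in WT (median 1.64). Of the 2, Sctr was lost with the libraries left out whose labels note a bad read file (noted libraries), without BDL KO 1 and BDL KO 3, with no filter or with a replicate block (adjusted p 0.0631 to 0.182). Sctr, the secretin receptor upstream of CFTR, was at 0.865 ± 0.281 CPM in WT BDL, against 0.0495 ± 0.0331 CPM in WT sham (log2 3.97 ± 0.66, adjusted p = 6.29e-04). Slc10a2, the apical bile acid transporter, was at 76.9 ± 23.8 CPM in WT BDL, against 23.7 ± 8.27 CPM in WT sham (log2 1.70 ± 0.30, adjusted p = 0.00101). Of 4 cilium and cystic disease genes, Bicc1 and Pkd2 rose in WT BDL (median 0.46). Bicc1 also rose under the KO label. That call was lost without BDL KO 1 and BDL KO 3 (adjusted p = 0.0665), with noted libraries left out (0.0855) or with only the compared groups (0.0545). Bicc1, an RNA-binding protein whose loss causes cystic kidneys, was at 7.11 ± 1.71 CPM in KO-labelled BDL and 21.1 ± 7.55 CPM in WT BDL (log2 -1.57 ± 0.31, adjusted p = 0.0370). Pkd2, which encodes polycystin 2, was at 18.8 ± 1.43 CPM in KO-labelled BDL and 29.5 ± 4.73 CPM in WT BDL (log2 -0.65 ± 0.15, adjusted p = 0.0384).

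The signalling lists moved less. Of 6 Notch pathway genes, Rbpj, the DNA-binding partner of Notch, rose in WT BDL (log2 0.63 ± 0.16, adjusted p = 0.00996), and Notch2 was at 0.60 ± 0.23 (adjusted p = 0.0601), past the threshold by DESeq2 (0.0497), with only the compared groups (0.0247) or without BDL KO 1 and BDL KO 3 (0.0292). Of 5 targets of YAP, Ccn2 and Ankrd1 rose in WT BDL, by 2.04 ± 0.50 (adjusted p = 0.00733) and 3.26 ± 1.08 (adjusted p = 0.0324). Ankrd1 missed the threshold with noted libraries left out (adjusted p = 0.0696) or a replicate block (0.0671). Under the KO label Ccn2 missed the threshold. It passed there as higher by DESeq2 (adjusted p = 0.0359), without BDL KO 1 and BDL KO 3 (0.0200) or with noted libraries left out (0.0373). Between KO-labelled and WT BDL, DESeq2 called Rbpj (-0.55, adjusted p = 0.0172) and Ccn2 (-1.36, adjusted p = 0.0457) lower under the KO label, where edgeR called neither. Of 6 ligands and receptors that act on ductular cells, Vcam1, Tnfsf12 and Tnfrsf12a rose in WT BDL. Vcam1, an adhesion receptor for leukocytes, was at 20.5 ± 11.5 CPM in KO-labelled BDL and 67.1 ± 25.8 CPM in WT BDL (log2 -1.71 ± 0.37, adjusted p = 0.0384). Without BDL KO 1 and BDL KO 3, the differences of Prom1, Bicc1, Pkd2 and Vcam1 between KO-labelled and WT BDL were -1.47, -1.45, -0.70 and -1.33, and none passed (adjusted p 0.125 to 0.141). They were also lost without BDL KO 1, BDL KO 3, BDL WT 2, BDL WT 3 or BDL WT 4 (adjusted p 0.0546 to 0.127). For the difference of the BDL response by label, DESeq2 called Prom1 (-3.01, adjusted p = 0.0270) and Bicc1 (-2.10, adjusted p = 0.0116), where edgeR called neither. Tnfsf12, the cytokine TWEAK, rose by 1.07 ± 0.25 in WT BDL (adjusted p = 0.00579). Its receptor Tnfrsf12a, named after its values were seen, was at 91.5 ± 74.5 CPM in KO-labelled BDL and 30.5 ± 12.9 CPM in WT BDL, higher under the KO label (log2 1.58 ± 0.42, adjusted p = 0.0448). Tnfrsf12a, Spp1 and Tspan8 were not read one by one under the alternatives. Between KO-labelled and WT BDL, 0 of all genes were called with noted libraries left out or with only the compared groups. The calls of Tnfrsf12a, Spp1 and Tspan8 were thus lost there too.

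Of 8 hepatocyte markers, Cyp2e1 and Ttr fell in WT BDL, by 1.89 and 1.60 on the log2 scale (adjusted p = 5.57e-04 and 9.25e-04). Cyp2e1, a cytochrome P450, was at 1527 ± 447 CPM in WT BDL, against 5676 ± 945 CPM in WT sham. Ttr, the plasma carrier transthyretin, was at 1927 ± 324 CPM in WT BDL, against 5842 ± 743 CPM in WT sham. Of 5 markers of dividing cells, Mki67 and Birc5 rose in WT BDL, by 2.82 ± 0.84 and 2.12 ± 0.59 (adjusted p = 0.0195 and 0.0135), with overlapping groups. Both calls were lost with noted libraries left out (adjusted p = 0.0807 and 0.0705). Under the KO label Mki67 missed the threshold. It passed there as higher by DESeq2 (adjusted p = 0.0477) or without BDL KO 1 and BDL KO 3 (0.0450).

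The genes whose log2 level ran most closely with each member over the 16 liver libraries were read by Pearson's r, as a description. Epcam ran with Cd24a (0.978), with the epithelial protease gene St14 (0.977) and with Npdc1 (0.972). Cd24a ran next with Rcan3 (0.964) and Cdh6 (0.960). Krt7 ran with St14 (0.934), Wnt7b (0.929) and Wnt7a (0.917), and Krt19 with Ltbp3 (0.952), Pamr1 (0.948) and Cacnb3 (0.941). Cftr ran with Ly6e (0.960), Cldn6 (0.948) and Scube3 (0.943). Sox9 ran with 1810030O07Rik (0.948), Loxl2 (0.947) and the glycolytic enzyme gene Pkm (0.946). Epcam and Cd24a were thus each other's nearest gene, and the other 4 had no member among their 3 nearest. Over the 16 liver FPKM columns the value was 0.844 for Epcam with Cd24a, 0.941 for Epcam with St14 and 0.275 for Sox9 with 1810030O07Rik. All of these points share the split between BDL and sham.

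The genes lie on 5 chromosomes in GENCODE M21 on GRCm38. Krt7 spans chr15:101411043-101430313 on the plus strand with 11 merged exons, Krt19 chr11:100140810-100148665 on the minus strand with 8, Epcam chr17:87635979-87651129 on the plus strand with 10, Sox9 chr11:112782224-112787760 on the plus strand with 3, Cd24a chr10:43578284-43584265 on the plus strand with 4, and Cftr chr6:18170687-18322768 on the plus strand with 29. The library kit did not keep strand. Reads over the 77 exonic bases that Krt7 shares with antisense Gm671, and the 129 that Cftr shares with antisense Gm15592 and pseudogene Gm15595, therefore cannot be assigned to one gene.

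RefSeq promoter sequence on GRCm38.p6 was at hand for Krt7, Epcam and Cftr, 3 genes that rose together in WT BDL, and the 250 bases before each start are shown 5′ to 3′ on the gene's strand. Capitals mark the GC box GGGCGG, the letters bound by Sp-family factors, on either strand, so that CCGCCC is a match on the opposite strand. The windows are chr15:101412153-101412402, chr17:87635729-87635978 and chr6:18170437-18170686, all on the plus strand.
Krt7: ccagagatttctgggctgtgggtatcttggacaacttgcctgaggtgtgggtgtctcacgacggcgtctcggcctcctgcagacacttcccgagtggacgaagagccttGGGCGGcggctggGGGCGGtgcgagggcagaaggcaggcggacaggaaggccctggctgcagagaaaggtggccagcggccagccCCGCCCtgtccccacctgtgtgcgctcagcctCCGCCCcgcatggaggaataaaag
Epcam: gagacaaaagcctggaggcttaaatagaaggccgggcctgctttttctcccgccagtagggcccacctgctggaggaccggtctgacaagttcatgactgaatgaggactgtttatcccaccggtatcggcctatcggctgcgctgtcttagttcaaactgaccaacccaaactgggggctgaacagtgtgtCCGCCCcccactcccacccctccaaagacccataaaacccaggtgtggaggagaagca
Cftr: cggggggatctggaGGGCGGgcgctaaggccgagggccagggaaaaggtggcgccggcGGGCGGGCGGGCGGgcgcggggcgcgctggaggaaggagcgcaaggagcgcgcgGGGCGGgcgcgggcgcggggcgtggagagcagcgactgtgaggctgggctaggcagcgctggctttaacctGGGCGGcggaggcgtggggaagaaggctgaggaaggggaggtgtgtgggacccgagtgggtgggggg

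Krt7's window held 4 GC boxes, 2 on each strand, Epcam's held 1 and Cftr's 6, of which some overlap. Of 32817 promoter windows of the same length, 32.7% held at least 1. The windows were 66% GC for Krt7, 56.4% for Epcam and 76.4% for Cftr, beside a median of 52.4%. Also searched on both strands were the HNF1 core GTTAAT (in 6.44% of all windows), the TEAD site GGAATG (12.6%), the SOX core AACAAT (9.42%) and the TATA box TATAAA (12.4%), and none of these was in the 3 windows. Krt7's RefSeq start lies inside the longer span that GENCODE gives.

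In the inhibitor experiment, BDL with DMSO also went with higher levels. By limma on log2(FPKM + 1) with Benjamini-Hochberg adjustment, 5 of 5 members tested rose, against 5.47% of all genes tested, with a member median of 1.76 beside -0.10 over all genes. The scale understates changes of low genes. Cftr was below the filter of 1 FPKM in at least 3 columns and was not tested, but its 6 BDL DMSO columns, at 0.335 to 1.30 FPKM, all lay above the 3 sham DMSO columns, at 0.0361 to 0.126 FPKM. Read depth behind the FPKM is unknown.

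Cd24a was at 14.3, 22.6, 17.4, 12.1, 27.6 and 43.2 FPKM in BDL DMSO (lowest 12.1, highest 43.2), against 3.25, 1.70 and 4.53 FPKM in sham DMSO (log2 2.45 ± 0.35, adjusted p = 4.02e-04). Every BDL column was above every sham column. Krt19 was at 4.82, 7.13, 3.23, 7.63, 14.8 and 26 FPKM in BDL DMSO, against 0.692, 0.191 and 2.22 FPKM in sham DMSO (log2 2.35 ± 0.47, adjusted p = 0.00415). Sox9 was at 4.85, 8.93, 3.82, 4.75, 8.39 and 13.7 FPKM in BDL DMSO, against 1.70, 1.62 and 2.05 FPKM in sham DMSO (log2 1.48 ± 0.29, adjusted p = 0.00331). Neither gene's groups overlapped.

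Epcam and Krt7 rose with overlap. Epcam was at 2.48, 5.91, 0.680, 2.84, 10.3 and 14.2 FPKM in BDL DMSO, against 0.947, 0.404 and 0.544 FPKM in sham DMSO (log2 1.76 ± 0.51, adjusted p = 0.0328). Krt7 was at 4.32, 2.92, 0.547, 2.24, 4.25 and 5.00 FPKM in BDL DMSO, against 1.01, 0.222 and 0.238 FPKM in sham DMSO (log2 1.41 ± 0.38, adjusted p = 0.0211). One BDL DMSO column was the highest for 6 of the 6 genes, and another was the lowest for Krt7, Krt19, Epcam and Sox9. Per length, Cd24a had the highest FPKM of the 6 genes in every BDL DMSO column. Without the column that was highest throughout, Epcam missed the threshold (1.46 ± 0.46, adjusted p = 0.0560) and Krt7 passed (1.28 ± 0.38, adjusted p = 0.0437). Epcam also missed it without either of 2 other BDL columns or any 1 sham column (adjusted p 0.0584 to 0.118) and with no filter (0.0641), where Cftr was tested and passed (0.60 ± 0.13, adjusted p = 0.0117). Krt7 missed it without either of 2 sham columns (0.0976 and 0.0979).

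With UNC569, 1 of 5 members tested rose after BDL, against 3.66% of all genes, and that was Sox9. It was at 5.10, 5.18, 6.91 and 5.68 FPKM in BDL UNC569, against 1.08, 2.08 and 1.80 FPKM in sham UNC569 (log2 1.35 ± 0.31, adjusted p = 0.0130), with no overlap. Without 1 of the sham UNC569 columns it was at 1.19 (adjusted p = 0.0754). The other 4 had changes of 0.53 (Krt7), 0.85 (Krt19), 0.71 (Epcam) and 0.79 (Cd24a), adjusted p 0.229 to 0.491, and their groups overlapped.

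UNC569 against DMSO after BDL gave 1 call among the 5 members tested, against 0.193% of all genes called lower. Cd24a was at 3.44, 5.21, 5.13 and 5.06 FPKM in BDL UNC569, against 12.1 to 43.2 FPKM in BDL DMSO. Every UNC569 column lay below every DMSO column, and the level fell by 1.95 on the log2 scale (SE 0.32, adjusted p = 0.0293). The call was lost without any of 3 of the 4 UNC569 columns or 1 of the DMSO columns (adjusted p 0.0541 to 0.144) and with no filter on low genes (adjusted p = 0.0647), while the value stayed between -2.14 and -1.75.

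The keratins and Epcam lay lower with overlap. Krt19 was at 3.52, 1.2, 1.81 and 2.03 FPKM in BDL UNC569, against 3.23 to 26 FPKM in BDL DMSO (log2 -1.65 ± 0.43, adjusted p = 0.132). Krt7 was at 0.434, 1.24, 1.96 and 0.530 FPKM in BDL UNC569, against 0.547 to 5.00 FPKM in BDL DMSO (log2 -0.98 ± 0.34, adjusted p = 0.287). Epcam was at 1.91, 2.09, 0.981 and 0.781 FPKM in BDL UNC569, against 0.680 to 14.2 FPKM in BDL DMSO (log2 -1.2 ± 0.47, adjusted p = 0.344).

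Cftr was listed at 0 in 2 of the 4 BDL UNC569 columns and at 0.0625 and 0.0473 FPKM in the other two, against 0.335 to 1.30 FPKM in BDL DMSO. All UNC569 columns lay below all DMSO columns. Cftr was not tested, and with no filter its difference was -0.69 ± 0.12 (adjusted p = 0.0647). Sox9 differed least, at 5.10 to 6.91 FPKM in BDL UNC569 and 3.82 to 13.7 FPKM in BDL DMSO (log2 -0.22 ± 0.26, adjusted p = 0.789).

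The sum of the 6 genes was 14.1 to 16.8 FPKM in BDL UNC569 and 26.4 to 103 FPKM in BDL DMSO, without overlap. Cd24a, the highest of the 6 in every BDL DMSO column, was at 12.1 to 43.2 FPKM there and 3.44 to 5.21 FPKM in BDL UNC569. Krt7, Krt19, Epcam and Sox9 each overlapped, so the gap of the sum does not stand for all members. The difference of the BDL response by injection was tested as an interaction, and 0 of 5 members passed by limma (values -1.66 for Cd24a to -0.13 for Sox9), 2 had an unadjusted p under 0.05, and 0% of all genes passed. Hepatocyte markers summed to 26965 to 32755 FPKM in BDL UNC569 and 20444 to 29298 FPKM in BDL DMSO, with 8 of 8 detected, and neutrophil markers to 72.9 to 661 FPKM in BDL UNC569 and 16.7 to 85.9 FPKM in BDL DMSO. Their part in the members' values was not tested.

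**Figure D2:**
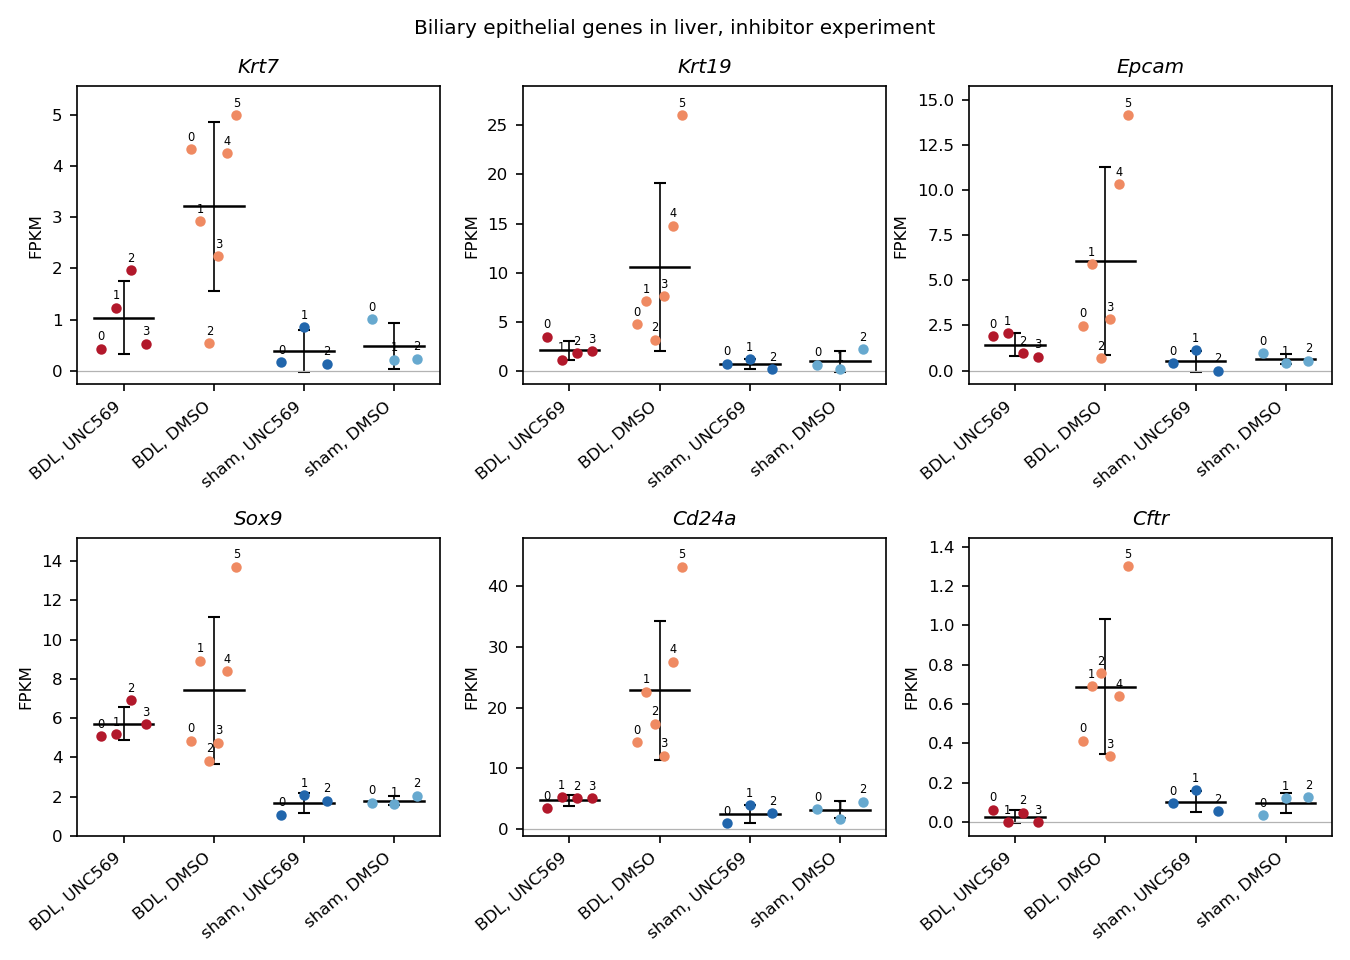
Level of each of the 6 genes (FPKM, linear axis) in the 16 liver columns of the inhibitor experiment. Each point is 1 column with its number in the table, the line is the group mean and the bar its SD (n = 4, 6, 3 and 3 from left to right). For Cd24a and Cftr every BDL UNC569 point lies below every BDL DMSO point, and for Sox9 the groups overlap.

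Other biliary genes were read from the same lists. Of 8 surface and secreted markers, 1 rose after BDL with UNC569, Tm4sf4, and 6 with DMSO. Tm4sf4 was at 239 ± 50.6 FPKM in BDL UNC569 (n = 4) and 256 ± 53.9 FPKM in BDL DMSO (n = 6), a difference of -0.10 ± 0.21. Of 7 keratins and junction genes, none passed with UNC569 by limma, although 3 had an unadjusted p under 0.05, and 5 rose with DMSO. With a pseudocount of 0.1, Cldn4 did pass as higher after BDL with UNC569 (3.20 ± 0.73, adjusted p = 0.0131). Cldn4 was at 2.55 ± 1.48 FPKM in BDL UNC569 and 17.2 ± 13.5 FPKM in BDL DMSO (log2 -2.12 ± 0.47, adjusted p = 0.0753). Of 5 YAP targets, Ccn2, Ankrd1 and Ajuba rose with DMSO. Ccn2 was lost with no filter (adjusted p = 0.0502), and Ankrd1 with no filter (0.0574) or a pseudocount of 0.1 (0.0616). Ccn1, named after its values were seen, was at 2.84 ± 0.339 FPKM in BDL UNC569 and 25.1 ± 15.5 FPKM in BDL DMSO, the single list gene to pass between them (log2 -2.46 ± 0.50, adjusted p = 0.0483). Ccn1 was not read under the alternatives.

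**Figure D3:**
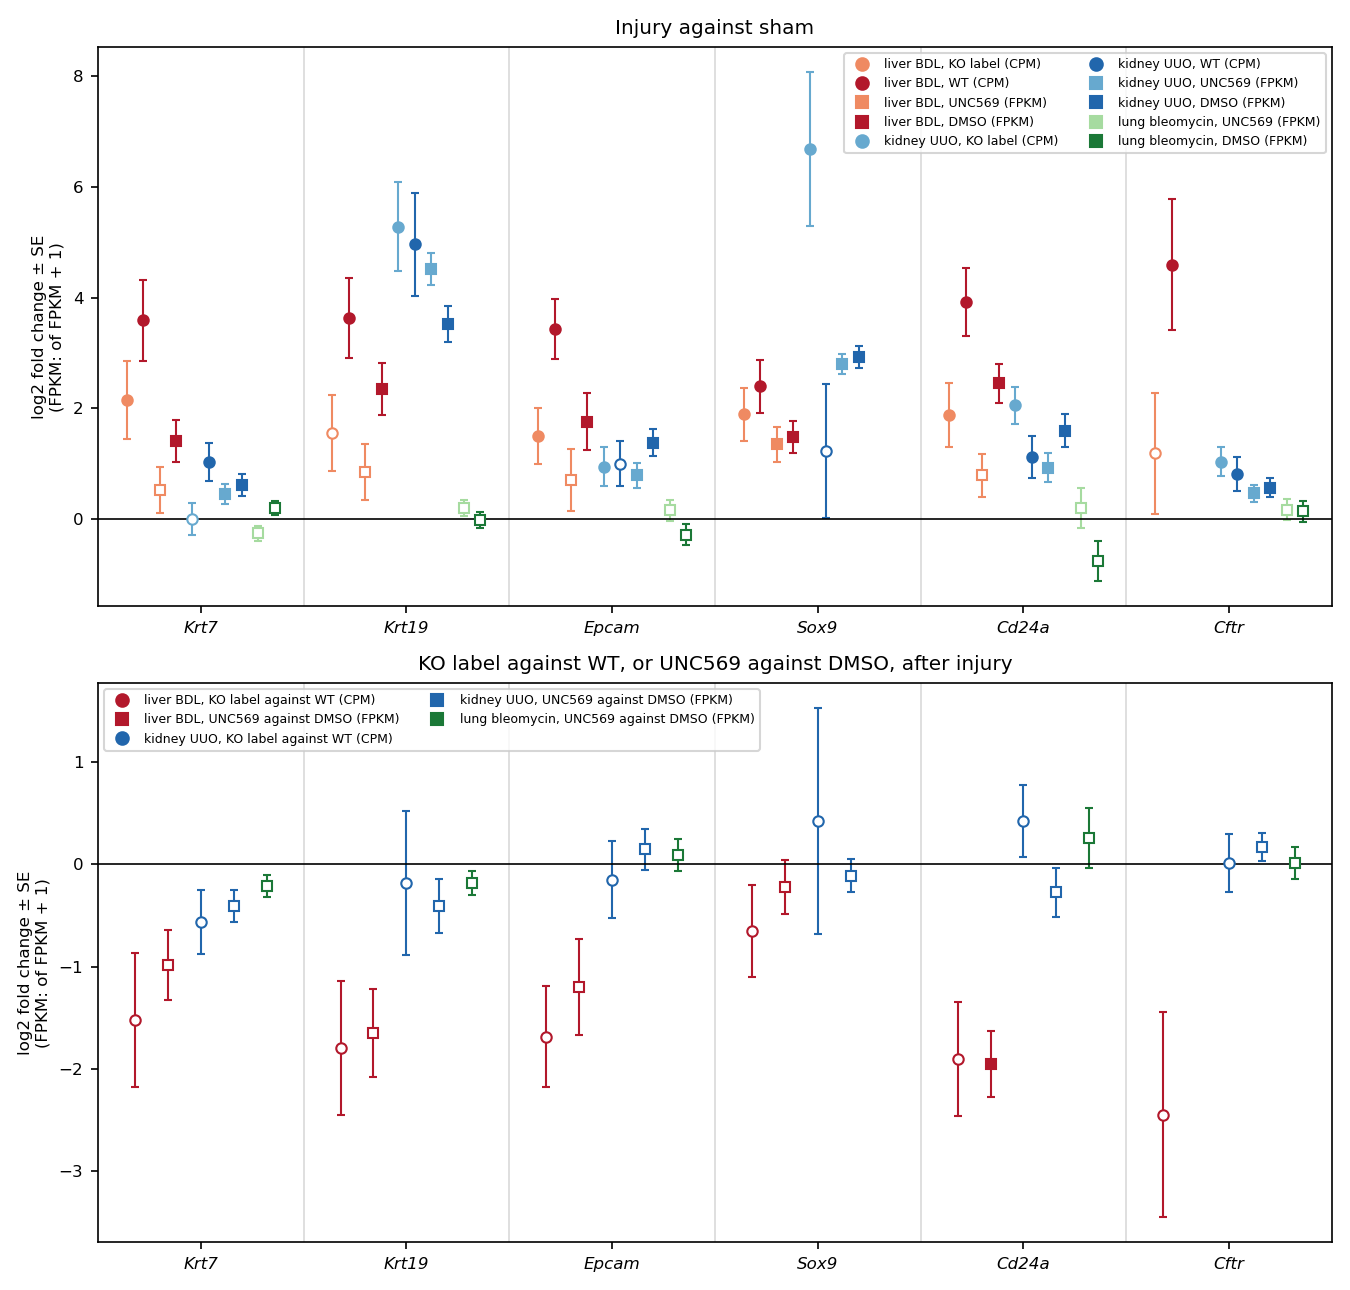
Log2 fold change with its SE for each gene, injury against sham in the upper panel and KO label against WT or UNC569 against DMSO after injury in the lower panel. Circles are counts (CPM) and squares log2(FPKM + 1), which are different scales, and filled symbols have an adjusted p under 0.05. Liver values lie below 0 for all genes in the lower panel, with Cd24a under UNC569 (-1.95) the filled one. Genes below the filter are not drawn.

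In kidney these genes are known from tubule, collecting duct and urothelial cells. After UUO in WT mice, Krt7, Krt19, Cd24a and Cftr rose, 4 of 6, while edgeR called 23.3% of all genes higher and 16% lower. The member median was 1.08, beside 0.16 over all genes. Krt19 moved most, at 128, 89.8 and 60.3 CPM in WT UUO, against 5.04, 0 and 3.21 CPM in WT sham (log2 4.96 ± 0.93, adjusted p = 8.69e-04). Krt7 was at 141, 189 and 142 CPM in WT UUO, against 57.8, 36.7 and 136 CPM in WT sham (log2 1.03 ± 0.34, adjusted p = 0.0286). Cd24a was at 359, 393 and 450 CPM in WT UUO, against 307, 96.7 and 145 CPM in WT sham (log2 1.13 ± 0.38, adjusted p = 0.0281). None of these 3 overlapped between the groups.

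Cftr was at 18.8, 16 and 22.6 CPM in WT UUO, against 12.2, 11.1 and 9.31 CPM in WT sham (log2 0.82 ± 0.31, adjusted p = 0.0473). Epcam was at 148, 213 and 155 CPM in WT UUO, against 126, 43 and 88.0 CPM in WT sham (log2 1.01 ± 0.41, adjusted p = 0.0632). Both sets of groups stood apart, though Epcam missed the threshold. Sox9 was at 83.8, 28 and 43.9 CPM in WT UUO, against 0, 67.9 and 0.494 CPM in WT sham (log2 1.23 ± 1.21, adjusted p = 0.445).

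The overlap of Sox9 came from 1 library, sham WT 3. It had 58.5% unmapped reads, and its injured-tubule markers summed to 1085 CPM, against 85.4 and 99.8 CPM in the other WT sham libraries. Without it, Sox9 was at 7.59 ± 0.90 (adjusted p = 3.81e-05), and Krt7, Cd24a and Cftr no longer passed (adjusted p 0.108 to 0.130), so 2 of 6 were called. With one library left out at a time, Cftr was lost without any of 5 libraries (adjusted p 0.0762 to 0.159), Krt7 without UUO WT 3, sham WT 2 or sham WT 3 (0.0879 to 0.160) and Cd24a without UUO WT 4, sham WT 3 or sham WT 4 (0.0822 to 0.124). With all 16 kidney libraries kept, 1 of 6 was called, Krt19. Krt19 was also the only call with no filter, where Krt7, Cd24a and Cftr missed the threshold (adjusted p 0.0550 to 0.151). The same held with only the compared groups (0.0876 to 0.141). With noted libraries left out, which leaves 1 WT library per kidney group, Cd24a was at 0.16, Cftr at 0.56 and Sox9 at 13.62. In the library labelled UUO WT 1, Krt19 was at 50.8 CPM and Epcam at 0.437 CPM.

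Under the KO label, 5 of 6 rose after UUO, against 34.7% of all genes, with a member median of 1.55 beside 0.23 over all genes. Sox9 was at 43.8, 61.1, 54.0 and 118 CPM in KO-labelled UUO, against 0.224, 0.817, 1.04 and 0.587 CPM in KO-labelled sham (log2 6.68 ± 1.39, adjusted p = 9.15e-04). Krt19 was at 66.9, 30.7, 127 and 102 CPM in KO-labelled UUO, against 0.820, 0.562, 0.966 and 5.58 CPM in KO-labelled sham (log2 5.28 ± 0.81, adjusted p = 8.14e-05). Both were clear of overlap by a wide margin. Krt7 was the exception, at 116, 94.6, 119 and 95.9 CPM in KO-labelled UUO, against 88.3, 108, 106 and 121 CPM in KO-labelled sham (log2 0.01 ± 0.29, adjusted p = 0.988). With all 16 kidney libraries kept, 2 of 6 were called, Krt19 and Sox9.

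Cd24a changed by 2.06 ± 0.33 (adjusted p = 1.36e-04), Cftr by 1.04 ± 0.27 (adjusted p = 0.00392) and Epcam by 0.95 ± 0.35 (adjusted p = 0.0314) under the KO label. Epcam missed the threshold without any of 5 of these 8 libraries (adjusted p 0.0632 to 0.161). KO-labelled against WT kidneys after UUO differed between -0.56 (Krt7) and 0.42 (Cd24a and Sox9), and 0 of 6 passed by edgeR (0 with an unadjusted p under 0.05, 0 by DESeq2, 0% of all genes). For Krt7 the 4 KO-labelled libraries, at 94.6 to 119 CPM, lay below the 3 WT libraries, at 141 to 189 CPM. In the test of the difference between the responses, 0 of 6 passed by edgeR, 2 had an unadjusted p under 0.05 and 0 passed by DESeq2, with Krt7 at -1.02 ± 0.45 (adjusted p = 0.162). Without sham WT 4, in which Krt7 was at 136 CPM, that difference was -1.81 ± 0.30 (adjusted p = 0.00131) and that of Sox9 5.89 (adjusted p = 0.0129). For Sox9 it was 5.45 ± 1.79 (adjusted p = 0.102) with all 14 libraries and -1.03 (adjusted p = 0.601) without sham WT 3.

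In the inhibitor experiment 6 of 6 rose after UUO both with UNC569, where 27.5% of all genes were called higher and 34.5% lower, and with DMSO, where 29.7% were called higher and 25.8% lower. Krt19 was at 64.3 to 118 FPKM (median 84.8) in UUO UNC569, against 1.08, 4.60 and 3.88 FPKM in sham UNC569 (log2 4.52 ± 0.29, adjusted p = 9.57e-10). With DMSO it was at 103, 120, 114 and 129 FPKM in UUO, against 5.04, 16.4 and 8.92 FPKM in sham (log2 3.53 ± 0.32, adjusted p = 9.53e-08). Sox9 was at 5.06 to 9.51 FPKM in UUO UNC569, against 0 to 0.395 FPKM in sham UNC569, and at 5.81 to 8.92 FPKM in UUO DMSO, against 0.0894 to 0.269 FPKM in sham DMSO. With DMSO each gene's UUO and sham columns were apart, and with UNC569 those of Krt19, Sox9 and Cftr. The share of all genes whose columns were apart was not counted.

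UNC569 against DMSO after UUO changed 0 of 6 members by limma, with values from -0.41 (Krt7 and Krt19) to 0.17 (Cftr), adjusted p 0.186 to 0.747, and 1 unadjusted p under 0.05, while of all genes tested 1.3% were called, and 1.05% of all genes were called lower with UNC569. The difference between the responses passed for 0 of 6, with 1 unadjusted p under 0.05 (Krt19, 0.99 ± 0.44, adjusted p = 0.117), against 19.6% of all genes. Without 1 of the sham DMSO columns it was 1.37 for Krt19 (adjusted p = 0.0287). Without 1 of the sham UNC569 columns, Krt7, Epcam and Cftr missed the threshold for UUO with UNC569 (adjusted p 0.0554 to 0.0875). Compared per length, Krt7 exceeded Krt19 in every sham kidney column, and Krt19 exceeded Krt7 in 7 of 7 UUO UNC569 and 4 of 4 UUO DMSO columns. In lung, Krt19 was above Krt7 in 6 of 6 bleomycin columns of either injection, and also in 2 of 3 sham UNC569 and 3 of 3 sham DMSO columns.

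Markers of the cells that carry these genes in kidney moved as well. Urothelial markers, 6 of 6 detected, rose in 4 of 6 cases with UNC569 and 6 of 6 with DMSO. Their sum was 10.9 to 109 FPKM in UUO UNC569 and 175 to 195 FPKM in UUO DMSO, and the uroplakins Upk1a, Upk1b, Upk2 and Upk3a were lower with UNC569, by limma at -2.14, -2.33, -2.32 and -2.69 (adjusted p 0.0102 to 0.0477). The call of Upk1b was lost with no filter (adjusted p = 0.0787) or a pseudocount of 0.1 (0.109). In the counts the urothelial sum was 5.17 to 131 CPM in KO-labelled UUO and 12.9 to 109 CPM in WT UUO. In WT UUO, Krt5, a basal keratin, rose by 4.82 on the log2 scale (adjusted p = 0.0461), and Upk1b was at 3.21 (adjusted p = 0.0543). Neither held its side of the threshold. Krt5 missed it by DESeq2, with a replicate block, with all 16 libraries, with noted libraries left out or without sham WT 3 (adjusted p 0.0676 to 0.116), and Upk1b passed with all 16 libraries (0.0232) or no filter (0.0490). Collecting duct markers fell in 8 of 8 cases with UNC569 and 4 of 8 with DMSO, and in WT UUO 1 of 8 fell, Atp6v1b1, a proton pump subunit, by 0.81 (adjusted p = 0.0357), while the water channel gene Aqp3 was at -1.57 (adjusted p = 0.0614). Atp6v1b1 missed the threshold with all 16 libraries (adjusted p = 0.589) or noted libraries left out (0.117). Aqp3 passed as lower by DESeq2 (-1.69, adjusted p = 0.0162), with RLE factors (0.0485), with no filter (0.0342) and without sham WT 3 (0.0335). With UNC569, Atp6v1b1 missed it under median-of-ratios scaling (0.101) or no filter (0.0598). The part of these cells in the members' values was not tested.

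Of the biliary lists, 7 of 7 keratins and junction genes rose in WT UUO (median 2.76), 7 of 7 with UNC569 and 7 of 7 with DMSO. Krt18 changed by 3.42 (adjusted p = 3.87e-06; -0.10 with all 16 kidney libraries) and Cldn4 by 4.12 (adjusted p = 4.14e-06) in WT UUO. Of 8 surface and secreted markers 6 rose and 1 fell in WT UUO, the one that fell being Tm4sf4, which had risen in liver. Muc1, an apical mucin, changed by 2.74 (adjusted p = 8.47e-06) and Spp1, which encodes osteopontin, by 3.70 (adjusted p = 3.18e-05). Of 6 injured-tubule markers 5 rose in WT UUO, with Havcr1, the injury marker KIM-1, at 8.19 (adjusted p = 8.57e-06) and Lcn2, an iron-carrier binding protein, at 6.13 (adjusted p = 1.19e-05).

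**Figure D4:**
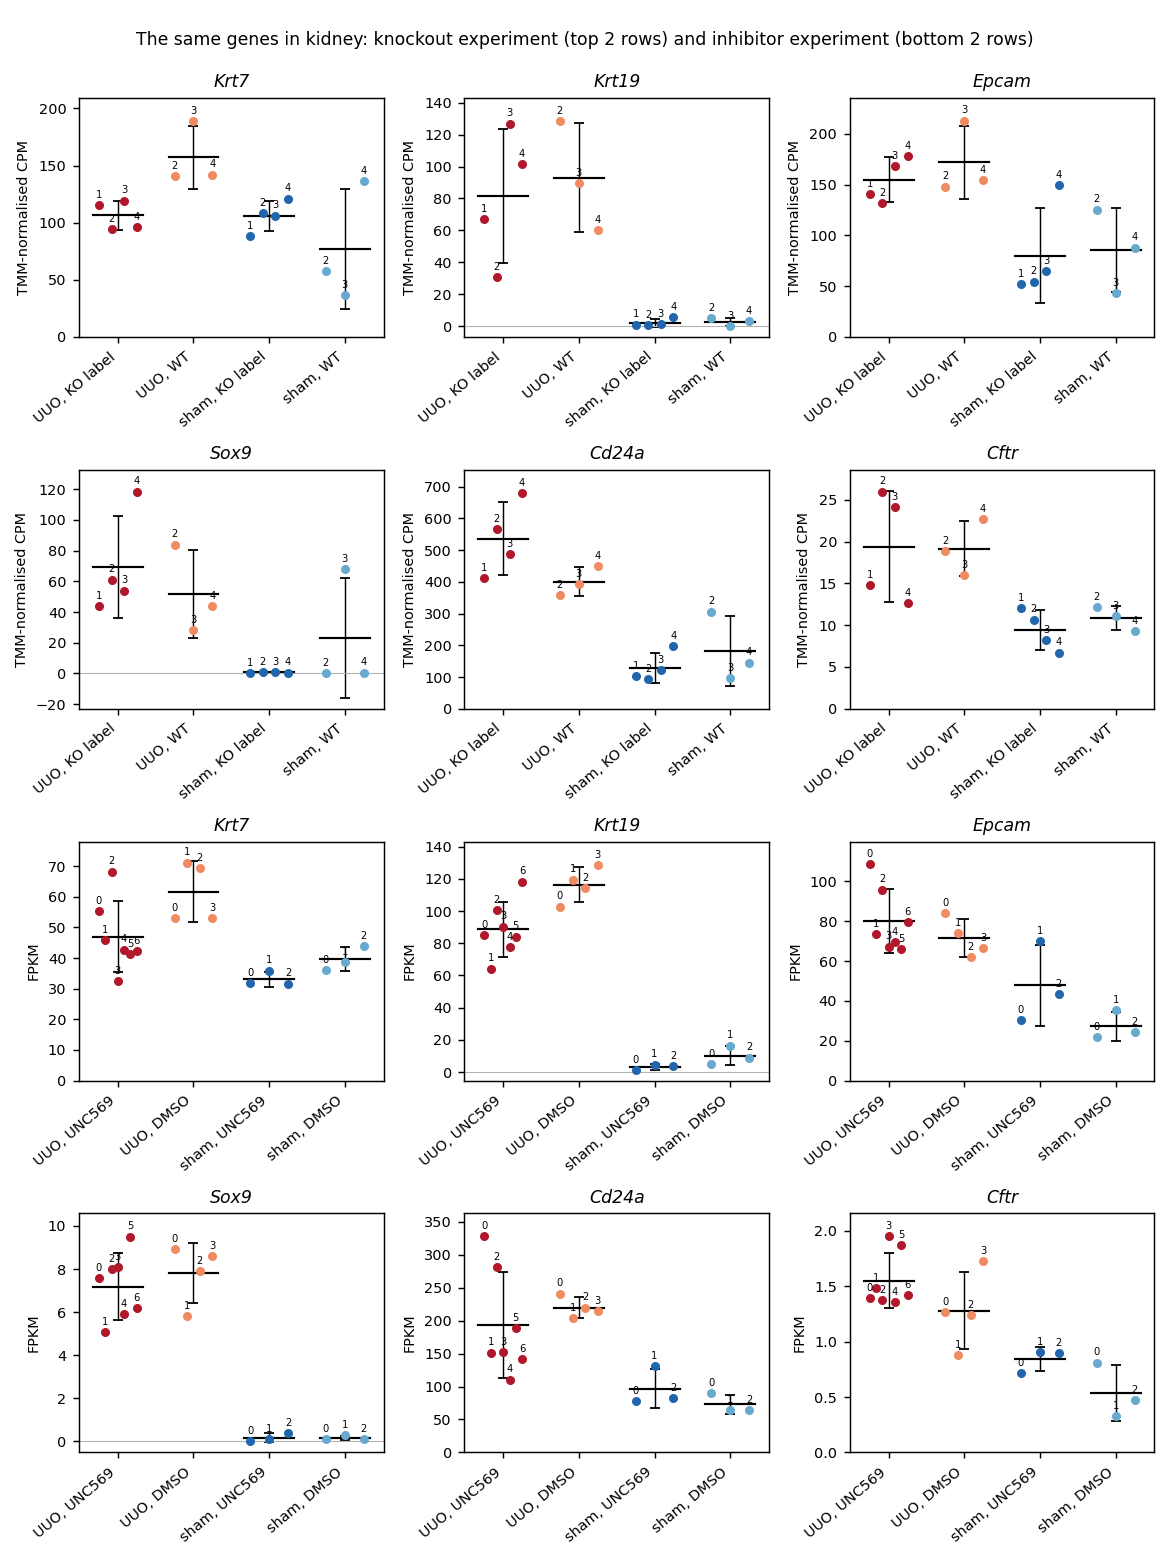
Level of each of the 6 genes in kidney, as CPM after TMM (upper rows, knockout experiment) and as FPKM (lower rows, inhibitor experiment) on linear axes. Each point is 1 library or column with its number, the line is the group mean and the bar its SD (n = 4, 3, 4 and 3 for counts, and 7, 4, 3 and 3 for FPKM, from left to right). Krt19 and Sox9 are near 0 in the sham groups, apart from Sox9 in sham WT 3 at 67.9 CPM.

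The BDL response in liver minus the UUO response in kidney was tested in 1 fit over 30 WT and KO-labelled libraries. Of the 6 genes, 4 responded more in liver, against 13.2% of all genes called higher, with Cd24a at 2.93 ± 0.75 (adjusted p = 0.00662), Epcam at 2.56 ± 0.70 (adjusted p = 0.00984), Cftr at 3.92 ± 1.18 (adjusted p = 0.0178) and Krt7 at 2.70 ± 0.84 (adjusted p = 0.0223) on the log2 scale. The median over all genes was 0.11. Krt19 was at -1.2 ± 1.15 (adjusted p = 0.495) and Sox9 at 1.21 ± 1.27 (adjusted p = 0.541). Sox9 was at -5.13 (adjusted p = 0.00121) without kidney sham WT 3. Krt7 missed the threshold without BDL WT 1 (1.83, adjusted p = 0.0817), without kidney sham WT 4 (1.97, adjusted p = 0.0820) and without UUO WT 2 or UUO WT 4 (adjusted p 0.0533 and 0.0552). With all 16 kidney libraries, Cd24a alone passed (2.89, adjusted p = 0.0404). With noted libraries left out, which leaves 1 WT library per kidney group, Sox9 was at -10.70. Epcam was then at 3.02, Cftr at 3.71 and Krt7 at 2.38. The levels were lower in sham liver, where WT libraries held Cd24a at 1.28 to 4.76 CPM and Krt7 at 0.757 to 1.5 CPM, than in sham kidney, where WT libraries held Cd24a at 96.7 to 307 CPM and Krt7 at 36.7 to 136 CPM.

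Bleomycin, which injures and scars lung, moved none of the 5 members tested past the threshold by limma. The number with an unadjusted p under 0.05 was 0 of 5 for bleomycin against sham with UNC569, 0 of 5 with DMSO, 0 of 5 for UNC569 against DMSO and 1 of 5 for the difference of responses. Of all genes, 0.0251% passed with UNC569, 0.069% with DMSO and 0% in the other two tests. Krt19 was at 111 to 156 FPKM in bleomycin UNC569, 136 to 168 FPKM in bleomycin DMSO, 110 to 122 FPKM in sham UNC569 and 113 to 182 FPKM in sham DMSO. Krt7 was at 72.1 to 101 FPKM in bleomycin UNC569, 83.4 to 118 FPKM in bleomycin DMSO, 96.6 to 121 FPKM in sham UNC569 and 80.2 to 96.3 FPKM in sham DMSO. Both keratins overlapped between the groups of each comparison, although Krt19 in bleomycin DMSO lay above sham UNC569 and Krt7 in sham UNC569 just above sham DMSO.

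Cd24a was at 188 to 419 FPKM in bleomycin UNC569, 154 to 333 FPKM in bleomycin DMSO, 232 to 289 FPKM in sham UNC569 and 654, 655 and 165 FPKM in sham DMSO. The sham DMSO group thus held 2 high columns and 1 low one, and bleomycin against sham with DMSO gave -0.76 ± 0.36 (adjusted p = 0.256). Without the low column, Cd24a fell by 1.42 (SE 0.27, adjusted p = 0.00698) and Epcam, at 29.5 to 40.1 FPKM in bleomycin DMSO against 53.9, 50.8 and 27.5 FPKM in sham DMSO, fell by 0.58 (adjusted p = 0.0327). The difference of the responses for Cd24a was then 1.61 (adjusted p = 0.0287). With the 2 high columns, which were the closest pair of lung columns, averaged, Cd24a was at -0.43 ± 0.39 (adjusted p = 0.739). The same columns were high in airway markers, which summed to 116760, 130050 and 58393 FPKM in sham DMSO, and the part of airway cells in Cd24a was not tested.

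Cftr was at 1.14 to 2.01 FPKM in bleomycin UNC569, 0.945 to 2.37 FPKM in bleomycin DMSO, 0.998 to 1.54 FPKM in sham UNC569 and 1.11 to 1.69 FPKM in sham DMSO. Sox9 was below the filter, at 0 to 0.724 FPKM in bleomycin UNC569, 0.0678 to 1.29 FPKM in bleomycin DMSO, 0.110 to 0.651 FPKM in sham UNC569 and 0.152 to 1.01 FPKM in sham DMSO. All of these overlapped. Of 7 keratins and junction genes, 6 airway markers and 6 markers of transitional alveolar epithelium, none passed with DMSO, and 0, 3 and 3 had an unadjusted p under 0.05. Sprr1a, a cornified-envelope gene of the transitional list, was at 3.19 ± 0.72 (adjusted p = 0.0718).

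**Figure D5:**
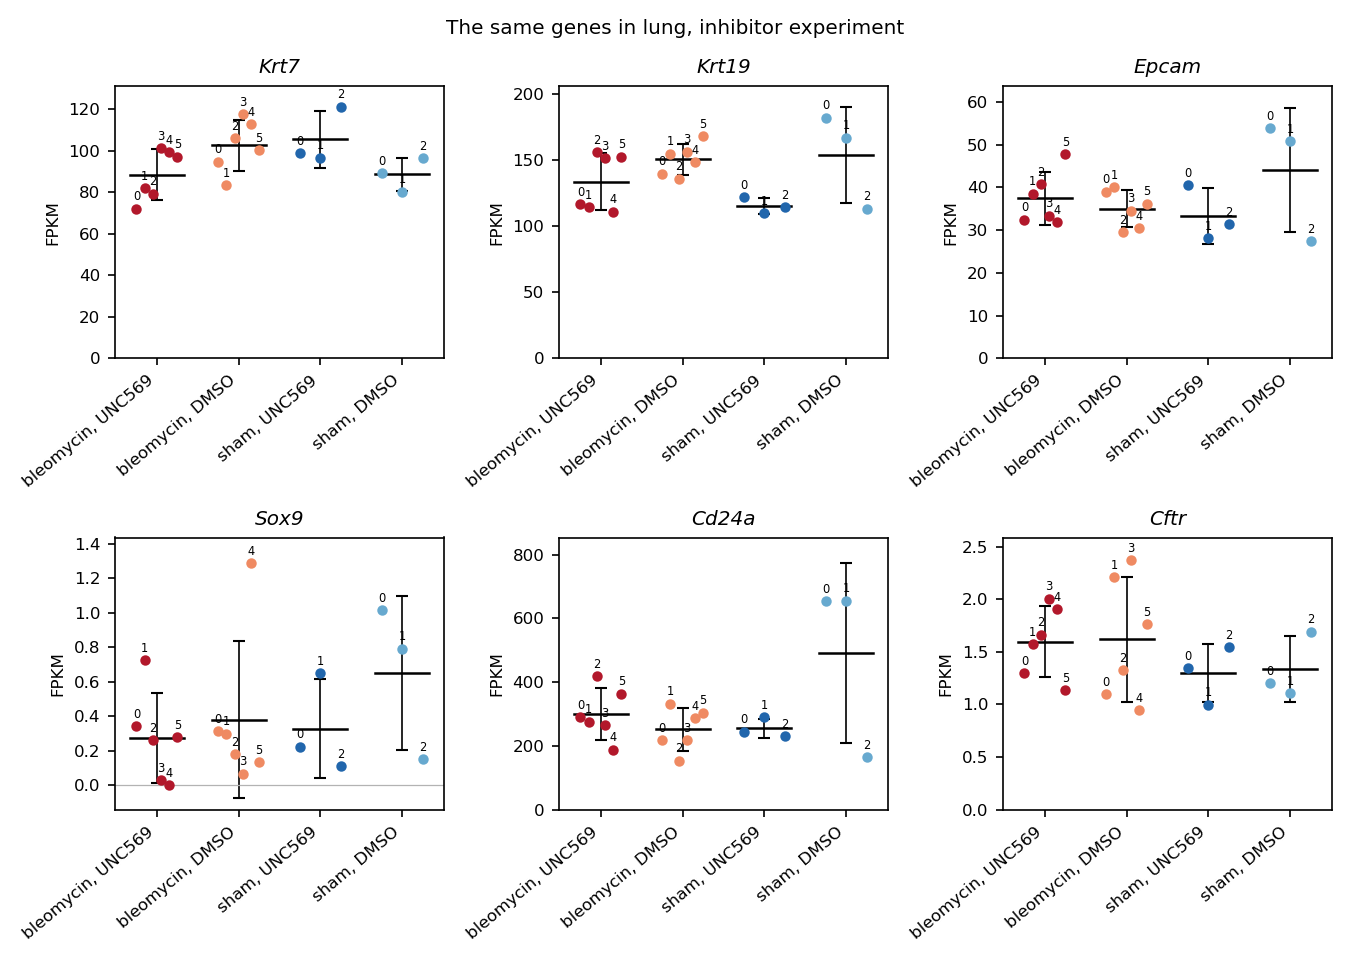
Level of each of the 6 genes (FPKM, linear axis) in the 18 lung columns. Each point is 1 column with its number, the line is the group mean and the bar its SD (n = 6, 6, 3 and 3 from left to right). The groups of each comparison (bleomycin against sham within an injection, UNC569 against DMSO after bleomycin) overlap for all 6 genes, and for Cd24a the sham DMSO columns split into 654 and 655 against 165 FPKM.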

How the data were processed

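RNA was sequenced from liver, kidney and lung with an unstranded TruSeq kit, per the labels' protocols. The deposited counts are raw reads per gene in the layout STAR writes, read from its unstranded column. Reads outside genes, 20.8 to 67.6% of a library, stayed out of library sizes. The deposited FPKM tables, 51 columns for 54 samples, name the group of a column but not its sample, and their depth is unknown. The submitters' processing notes name FastQC, Trim Galore, STAR and edgeR (versions not given) and the builds mm10 and hg38, with no role.

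Counts were tested by edgeR 4.0.16 under R 4.3.3, with its expression filter, TMM and the quasi-likelihood fit over all groups of a tissue. Log2(FPKM + 1) was tested by limma 3.58.1 with an intensity trend, for genes of at least 1 FPKM in at least 3 columns. P-values were adjusted over all genes, with a threshold of 0.05. The steps were tested on simulated data. Alternatives were a replicate block, DESeq2 1.42.0, no filter, RLE factors, only the groups compared, a pseudocount of 0.1, median-of-ratios scaling, libraries noted with a bad read file left out and each library left out in turn.

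Of the count identifiers, 99.6% matched a name. Named genes are the 6 members, the 2 genes of each list with the smallest p for injury in WT counts (DMSO FPKM in lung), the 3 genes most correlated with each member, Mertk, and defining markers of other cell types. Members and lists were chosen with earlier results of these data known. Same-numbered libraries were checked for pairing and were not shown to be paired.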

Additional observations from a re-analysis of the deposited data

Results flagged for a closer look

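Of 72 sets of 4 to 7 libraries or columns, each 1 gene in 1 group, 5 held a member value far from the others, where chance gives about 1 in 20. Sox9 in the liver library BDL KO 3 was at 45.7 CPM, with the next at 14.8 CPM. Cd24a was at 3.44 FPKM in 1 of the 4 BDL UNC569 liver columns, below the next at 5.06 FPKM. In the kidney library sham KO 4, Epcam was at 149.9 CPM (next 64.7 CPM) and Krt19 at 5.58 CPM (next 0.966 CPM). Sox9 was at 1.29 FPKM in 1 bleomycin DMSO lung column (next 0.313 FPKM).

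The response in liver to BDL differed from that in kidney to UUO in WT mice by 2.70 for Krt7, 2.56 for Epcam, 2.93 for Cd24a and 3.92 for Cftr on the log2 scale. In the kidney library labelled UUO WT 1, which was left out, Krt19 was at 50.8 CPM, above the highest WT sham library at 5.04 CPM.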

How the results depend on the processing

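Under every alternative all 6 members rose in WT BDL liver by counts, and all 6 in UUO kidney with DMSO. Under every alternative 0 members passed for the difference of the BDL response by label or by injection, KO label against WT after UUO, UNC569 against DMSO after UUO or after bleomycin, and bleomycin with UNC569. In the other comparisons the number called moved. For BDL against sham under the KO label it was 4, with 1 when libraries noted with a bad read file were left out, 0 when only the compared groups were fitted, and 1 to 4 with single libraries left out. For KO label against WT after BDL it was 0, with 3 by DESeq2 and 0 to 5 with single libraries left out. For UUO against sham in WT it was 4, with 1 with all 16 kidney libraries, 1 with no filter, 1 with only the compared groups, 2 without sham WT 3 (added after seeing the data) and 2 to 3 with single libraries left out. Under the KO label it was 5, with 2 with all 16 libraries. The difference of the UUO response by label gave 1 with noted libraries left out, which leaves 1 WT library per kidney group assumed to vary like the others, and 0 to 2 with single libraries left out. The liver minus kidney difference gave 1 with all 16 kidney libraries, Cd24a. With noted libraries left out, that fit also leaves 1 WT library per kidney group, so its number called is not given.

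UNC569 against DMSO after BDL gave 0 with no filter and 0 to 1 with single columns left out. Single columns left out gave 3 to 5 for BDL with DMSO, 0 to 1 for BDL with UNC569, 3 to 6 for UUO with UNC569, 0 to 1 for the difference of the UUO response by injection, 0 to 2 for bleomycin with DMSO and 0 to 1 for the difference of the bleomycin response. Krt18 in WT UUO was at -0.10 with all 16 kidney libraries. Sox9 in the liver minus kidney difference was at -10.70 with noted libraries left out and -5.13 without sham WT 3, within -5.13 to 1.81 with single libraries left out. With noted libraries left out, sham WT 2 was the WT sham kidney library that remained, and its Sox9 was at 0 CPM. The cause was not tested.

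Across all genes, the calls for KO label against WT after BDL numbered 592, against 1908 by DESeq2, 322 with no filter, 0 with only the compared groups, 0 with noted libraries left out and 4 without BDL KO 1 and BDL KO 3. The difference of the BDL response by label gave 0 by edgeR and 146 by DESeq2, and that of the UUO response 0 by edgeR and 1651 by DESeq2. Same-numbered libraries did not deviate together in every pair. A replicate block changed the 592 calls to 239, and moved Epcam in BDL against sham under the KO label to 1.39 (adjusted p = 0.0686) and Cftr in WT UUO to 0.85 (adjusted p = 0.0558). It changed no other member's call. Few reads limit Cftr in liver, and unknown depth limits the FPKM values.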
